A study of Mus musculus with 16 samples.

Results

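Rps3a1, Rps3a2 and Rps3a3 are 3 copies of the mouse gene for ribosomal protein eS1, and they were measured in skeletal muscle of 16 male mice fed a high-fat diet (HFD). The members are the 3 rows of the count table, out of 55471, that carry these symbols. They were picked because the genotype-label contrast moved them in opposite directions, so every value of the copies or their sum between the labels is given as a description with no test. Tests of the copies were kept to Rps3a1 and the sum, and to what that choice did not use. These were body weight, cage and the relation to other ribosomal genes within the heterozygous label. The libraries are labelled Npr1+/- (heterozygous, n = 10) or Npr1+/+ (wildtype littermates, n = 6), and each is the muscle of 1 mouse. Npr1 encodes GCA, the receptor for atrial natriuretic peptide, and the Npr1tm1Gar allele of the B6.129 strain is a germline knockout, carried in every tissue and not in muscle alone. The strain had been backcrossed to C57BL/6J for at least 10 generations. Mice of both labels were 12 weeks old when the diet started, then ate HFD for 12 weeks, with 60% of the calories as lipids, and came from 4 cages. The question behind the comparison was how muscle gene expression of HFD-fed Npr1+/- mice differs from that of their wildtype littermates.

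Ribosomal protein eS1 sits on the small subunit of the cytosolic ribosome, near the site where mRNA leaves it, and every cell that makes protein needs it. The genes of ribosomal proteins are expressed at high levels, and reverse transcription of their mRNAs has left many intronless copies, called processed pseudogenes, in mammalian genomes. A short read from such a gene can match several places in the genome equally well, and how a counting program treats such reads affects the count of each copy.

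Library totals ranged from 15273472 to 59682677 counts, the highest in heterozygous replicate 5. The 9 fixed skeletal muscle markers were all detected, and their summed level was 105076 to 179521 CPM (library-size-scaled counts, TMM) in the heterozygous and 110390 to 165826 CPM in the wildtype libraries. Npr1 mRNA was not lower under the heterozygous label. It was at 13.6 ± 3.87 CPM there (SD, n = 10) and at 12.2 ± 1.05 CPM under the wildtype label (SD, n = 6), a log2 fold change of 0.09 (SE 0.20; adjusted p = 1.0 by edgeR's quasi-likelihood fit, adjusted after Benjamini and Hochberg). The genotype of single libraries was therefore not checked by the targeted mRNA, and "heterozygous" and "wildtype" mean the library as labelled. Wildtype replicate 3 stood apart from the other wildtype libraries in the split among the 3 copies, and the levels, fold changes and body weight slopes that rest on it are given with and without it.

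Rps3a1 is the gene with introns. It lies at chr3:86137940-86142702 of GRCm38 on the minus strand, has 6 exons and a spliced length of 977 bases, and encodes 264 codons. Npr1 is on the same chromosome at chr3:90450591-90465866, 4.31 Mb away. Rps3a2 (chr14:88123017-88123808, minus strand, 792 bases) and Rps3a3 (chr13:108670603-108671397, plus strand, 795 bases) are annotated as processed pseudogenes. Rps3a3 lies inside Pde4d (chr13:108449948-109951474), which encodes a cAMP phosphodiesterase, on the same strand, and it overlaps 0 of its exons.

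Both copies are annotated from the start codon on, without the 133 bases 5′ of the ATG and the 49 bases 3′ of the stop codon that Rps3a1 has. Counting from 1 at the A of the ATG, with the Rps3a1 base first, Rps3a2 differed from Rps3a1 at 4 of 792 bases (99.5% identity), namely T216C, T534C, A645T and T668C. Rps3a3 differed at 9 of 795 bases (98.9% identity), namely T216C, T260C, C363T, A427T, T534C, G582T, A660G, C762T and G792A. T216C and T534C are shared by both copies. Neither copy has a stop codon before the end of its annotated span, and the changed codons alter 1 amino acid in Rps3a2 and 2 in Rps3a3.

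**Figure D1:**
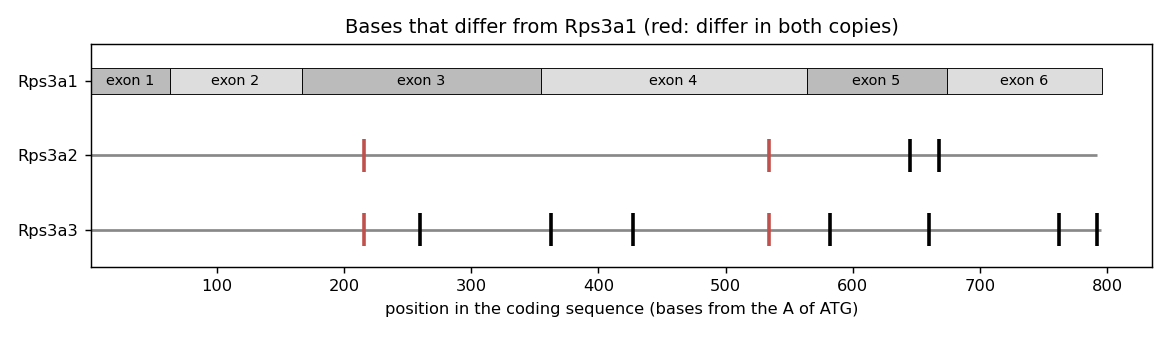
Bases at which the annotated Rps3a2 and Rps3a3 copies differ from the coding sequence of Rps3a1, by position from the A of the ATG, with the 6 exons of Rps3a1 drawn above. Red marks the 2 positions changed in both copies, and Rps3a3 has 9 marks against 4 for Rps3a2.

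The stretches of 52 bases, the read length, that follow show how few bases tell the copies apart, with the bases that differ among the 3 copies in capitals. All are on the coding strand, 5′ to 3′, from the transcripts of the GENCODE M21 reference on GRCm38. Bases 190 to 241 (exon 3 of Rps3a1) lie at chr3:86141352-86141403 in Rps3a1, chr14:88123568-88123619 in Rps3a2 and chr13:108670792-108670843 in Rps3a3, and hold T216C.
Rps3a1: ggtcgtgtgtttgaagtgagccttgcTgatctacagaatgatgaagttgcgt
Rps3a2 and Rps3a3: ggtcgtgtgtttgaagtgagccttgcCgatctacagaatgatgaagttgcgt

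Bases 508 to 559 (exon 4; chr3:86139044-86139095, chr14:88123250-88123301 and chr13:108671110-108671161) hold the other shared change, T534C.
Rps3a1: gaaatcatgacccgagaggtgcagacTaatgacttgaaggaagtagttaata
Rps3a2 and Rps3a3: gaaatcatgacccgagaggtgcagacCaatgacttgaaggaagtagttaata

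Bases 631 to 682 cross the last exon junction of Rps3a1 and tell all 3 copies from each other, through A645T and T668C in Rps3a2 and A660G in Rps3a3. In Rps3a1 they span chr3:86138102-86138525 with the last intron included, and in the copies they are continuous, at chr14:88123127-88123178 and chr13:108671233-108671284.
Rps3a1: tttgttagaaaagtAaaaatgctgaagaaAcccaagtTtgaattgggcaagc
Rps3a2: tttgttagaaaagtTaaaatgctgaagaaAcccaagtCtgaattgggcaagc
Rps3a3: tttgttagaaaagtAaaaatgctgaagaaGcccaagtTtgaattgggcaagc

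Bases 741 to 792, the end of the coding sequence (exon 6; chr3:86137992-86138043, chr14:88123017-88123068 and chr13:108671343-108671394), carry C762T and G792A in Rps3a3 and no difference in Rps3a2.
Rps3a1 and Rps3a2: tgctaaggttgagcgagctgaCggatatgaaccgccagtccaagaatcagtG
Rps3a3: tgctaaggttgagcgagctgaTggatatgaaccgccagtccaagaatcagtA

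Rps3a1 has 926 such stretches of 52 bases, of which 562 (60.7%) occur letter for letter in Rps3a2, 358 (38.7%) in Rps3a3 and 651 (70.3%) in at least 1 other annotated gene. Rps3a2 was the copy with the fewest stretches of its own, since 666 of its 741 (89.9%) occur in another gene. Of the 744 stretches of Rps3a3, 474 (63.7%) occur in another gene, 358 of them (48.1% of all) in Rps3a1. The longest run without a difference from Rps3a1 is 317 bases in Rps3a2 (217 to 533) and 215 bases in Rps3a3 (1 to 215). Reads were 52 bases from each end of a fragment, so a fragment spans more than 1 stretch, and its length is not known here.

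The split of the counts among the copies was nearly all Rps3a1 in 5 of the 6 wildtype libraries and was shared with Rps3a3 in the other 11 libraries. In the heterozygous libraries Rps3a1 held 74.8, 75.7, 78.5, 80.7, 76.1, 78.5, 77.8, 76.8, 80.6 and 54.3% of the summed counts of the 3 copies in replicates 1 to 10, and Rps3a3 held 23.8, 22.7, 20.7, 18.5, 22.5, 20.8, 21.2, 22.4, 18.4 and 43.5%. In the wildtype libraries Rps3a1 held 99.6, 99.2, 79.2, 99.7, 99.8 and 99.6% in replicates 1 to 6, and Rps3a3 held 0.150, 0.463, 19.7, 0.163, 0.0643 and 0.149%. Rps3a3 thus had a share of 18.4% or more in 10 of 10 heterozygous libraries and in wildtype replicate 3, and of 0.463% or less in the other 5 wildtype libraries.

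The 95% Wilson intervals of these shares cover counting error only and are narrow against the gap. The Rps3a3 interval ran from 17.1 to 19.6% in heterozygous replicate 9, which had the lowest share of its label, from 18.5 to 20.9% in wildtype replicate 3, and from 0.276 to 0.775% in wildtype replicate 2, the highest of the other wildtype libraries. Heterozygous replicate 10, at 41.4 to 45.5%, was the only heterozygous library whose Rps3a3 interval lay above 25.6%. In that library Rps3a1 and Rps3a3 had 1218 and 976 counts, a ratio of Rps3a3 to Rps3a1 of 0.801, against 0.228 to 0.319 in the other 9.

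**Figure D2:**
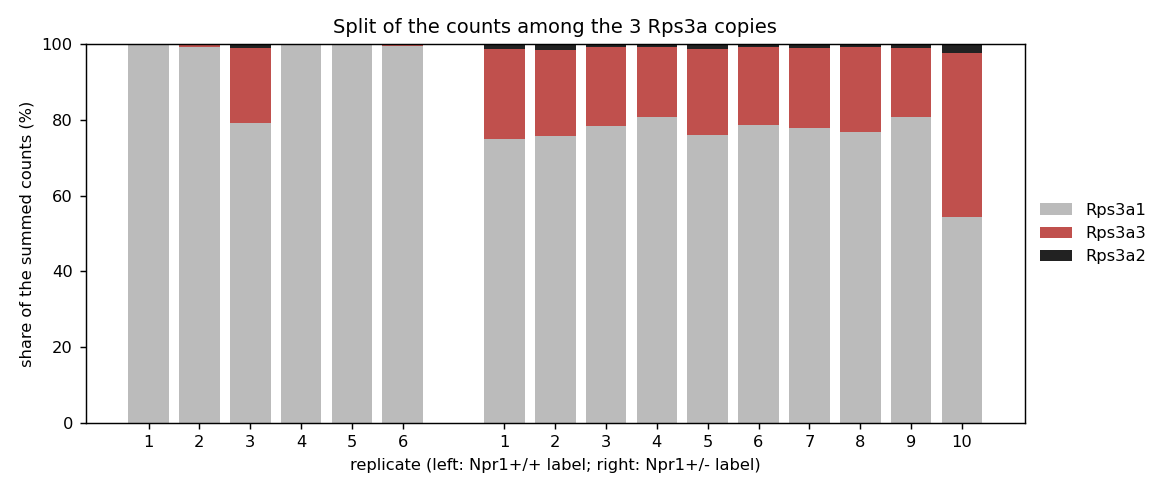
Share of the summed counts of the 3 Rps3a copies held by each copy in each library, in percent, wildtype replicates 1 to 6 on the left and heterozygous replicates 1 to 10 on the right. Rps3a3 holds 18.4 to 43.5% in the heterozygous libraries and 19.7% in wildtype replicate 3, and at most 0.463% in the other wildtype libraries.

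Rps3a2 held the smallest share in the heterozygous libraries, 0.670 to 2.27% (median 0.969%). Its share was 0.122 to 0.297% in 5 wildtype libraries and 1.12% in wildtype replicate 3. In counts, Rps3a2 had 16 to 107 per heterozygous library and 13, 9, 48, 3, 8 and 13 in wildtype replicates 1 to 6, so its wildtype level rests on few fragments. The ratio of Rps3a3 to Rps3a2 counts was 14.3 to 31.1 in the heterozygous libraries, 17.6 in wildtype replicate 3 and 0.375 to 1.56 in the other 5 wildtype libraries.

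Levels were then set on one scale across libraries as CPM. Rps3a1 was at 131, 116, 140, 147, 92.8, 87.8, 83.3, 113, 143 and 76.7 CPM in heterozygous replicates 1 to 10, with a mean of 113 ± 26.6 (SD, n = 10). It was at 173, 151, 122, 170, 172 and 191 CPM in wildtype replicates 1 to 6, with a mean of 163 ± 23.7 (SD, n = 6), and 171 ± 14.1 (SD, n = 5) without replicate 3. All 10 heterozygous libraries lay under the 5 wildtype libraries other than replicate 3, whose 122 CPM fell among the heterozygous values. The fitted log2 fold change of Rps3a1, heterozygous over wildtype with cage and body weight in the model, was -0.58 (SE 0.20), and also -0.58 without wildtype replicate 3.

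Rps3a3 was at 41.8, 34.6, 37.0, 33.8, 27.4, 23.3, 22.8, 33.0, 32.5 and 61.5 CPM in heterozygous replicates 1 to 10 (34.8 ± 11.1, SD, n = 10). It was at 0.261, 0.704, 30.4, 0.278, 0.111 and 0.285 CPM in wildtype replicates 1 to 6, a mean of 5.34 ± 12.3 (SD, n = 6) that falls to 0.328 ± 0.222 (SD, n = 5) without replicate 3. Wildtype replicate 3 sat inside the heterozygous range, and the other 5 sat far under it. The log2 fold change of Rps3a3 was 6.24 (SE 1.23) in the model with cage and body weight, 6.90 without wildtype replicate 3, and 2.68 with the genotype label alone. The size of this change thus differed with the covariates in the model and the libraries in it, and wildtype replicate 3 was the heaviest mouse at 54 g.

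Rps3a2 was at 0.750 to 3.21 CPM in the heterozygous libraries (1.75 ± 0.741, SD, n = 10). It was at 0.425, 0.453, 1.72, 0.209, 0.295 and 0.529 CPM in wildtype replicates 1 to 6 (0.606 ± 0.560, SD, n = 6; 0.382 ± 0.128, SD, n = 5, without replicate 3). Its order among libraries was like that of Rps3a3, with heterozygous replicate 10 highest and wildtype replicate 3 inside the heterozygous range. The log2 fold change of Rps3a2 was 2.33 (SE 0.52) in the model with cage and body weight, 2.43 without wildtype replicate 3, and 1.46 with the genotype label alone.

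Summed over the 3 copies, the level differed less between the labels than that of any copy. The sum was 150 ± 28.7 CPM (SD, n = 10, 107 to 182) in the heterozygous and 169 ± 14.4 CPM (SD, n = 6, 152 to 192) in the wildtype libraries, and the ranges overlapped. Without wildtype replicate 3, at 155 CPM, the wildtype sum was 172 ± 14.0 CPM (SD, n = 5). The log2 fold change of the sum was -0.18 (SE 0.18), and -0.17 without wildtype replicate 3. Over all 16 libraries the 2 labels overlapped for each of the 3 copies, against 0.00698% of genes tested with no overlap. With wildtype replicate 3 left out they did not overlap for any of the 3, against 0.0907% of genes, which is a description, since the copies were chosen on this contrast.

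**Figure D3:**
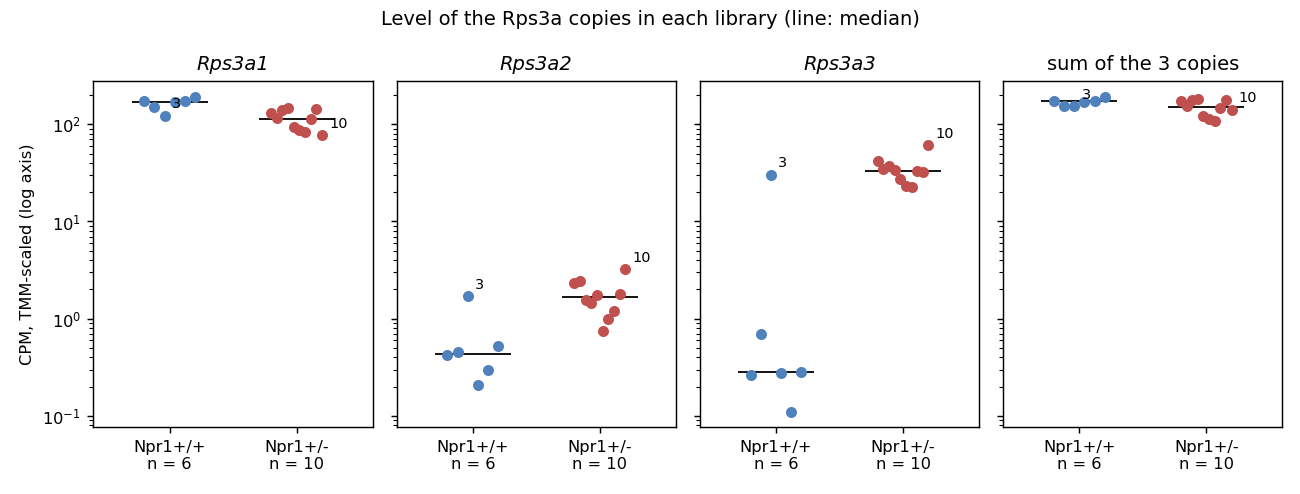
Level of each Rps3a copy and of their sum in each library, in TMM-scaled CPM on a log axis, for the wildtype (blue, n = 6) and heterozygous (red, n = 10) labels, with a line at the median and replicates 3 (wildtype) and 10 (heterozygous) numbered. Wildtype replicate 3 sits among the heterozygous libraries for Rps3a2 and Rps3a3, and the sums overlap.

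Within cages the same order was seen wherever wildtype replicate 3 was not involved. In each of cages 676, 677 and 678, every heterozygous library had more Rps3a3 and less Rps3a1 than every wildtype library of the same cage. Cage 675 held heterozygous replicates 3 and 6 and wildtype replicates 2 and 3. There Rps3a3 was at 23.3 and 37.0 CPM against 0.704 and 30.4 CPM, and Rps3a1 at 87.8 and 140 CPM against 122 and 151 CPM.

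Other loci that resemble Rps3a1 took few counts outside chromosome 18. Loci on chromosome 18 were left out, so any match there is not counted here. Elsewhere, 12 annotated loci matched the Rps3a1 transcript at 80% identity or more over at least 50% of its length. The 9 that are not Rps3a1, Rps3a2 or Rps3a3 had 83.4 to 98.5% identity. Together they had counts equal to 0.434 to 1.33% of those of the 3 copies per library, and only Gm5586, Gm13408 and Gm8960 reached 10 counts in any library. Gm5586 had 4 to 30 counts in the heterozygous and 14 to 20 in the wildtype libraries. Gm13408 (1 to 15 against 1 to 7) and Gm8960 (2 to 15 against 4 to 16) overlapped between the labels as well. Adding all 9 to the sum gave 151 ± 28.9 CPM in the heterozygous (SD, n = 10) and 171 ± 14.7 CPM in the wildtype libraries (SD, n = 6). The host gene of Rps3a3, Pde4d, was at 103 ± 31.3 CPM in the heterozygous (SD, n = 10) and 81.8 ± 10.1 CPM in the wildtype libraries (SD, n = 6), with a log2 fold change of 0.21 (SE 0.20, adjusted p = 1.0, edgeR with Benjamini-Hochberg adjustment).

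Compared per length, as mean CPM per kilobase of the deposited gene length, Rps3a1 was at 116 in the heterozygous and 167 in the wildtype libraries, Rps3a3 at 43.7 and 6.72, and Rps3a2 at 2.21 and 0.765. Without wildtype replicate 3 the wildtype levels were 175 for Rps3a1, 0.413 for Rps3a3 and 0.483 for Rps3a2. Among the small-subunit genes Rps3a1 ranked 11 of 32 in the heterozygous and 6 of 32 in the wildtype libraries. With the copies summed (153 and 173 per kilobase of Rps3a1), the ranks were 8 of 32 and 6 of 32. Rps3a1 was thus above the middle of the small-subunit genes under both labels, whether or not the copies were added.

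For body weight, 0% of 14331 tested genes passed at an adjusted p under 0.05 and 17.1% had an unadjusted p under 0.05, and without heterozygous replicate 3 the calls at an adjusted p under 0.05 went from 0 to 3158 genes. The slope of Rps3a1 was -0.0069 log2 units per gram (SE 0.0267, adjusted p = 0.903, edgeR with Benjamini-Hochberg adjustment) and that of the sum was 0.0072 (SE 0.0225, adjusted p = 0.876, edgeR), and neither passed. The slopes of Rps3a3, 0.281 (SE 0.114), and of Rps3a2, 0.138 (SE 0.0569), are given with no test, and cage was not tested for them either. Both copies had few counts in 5 of the 6 wildtype libraries and entered the fit through the other libraries, and both slopes came down, to 0.0592 and 0.0609, when wildtype replicate 3 was left out. The label coefficient of Rps3a3 also moved with body weight, from 4.68 with cage as the only covariate to 6.24 with both.

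Cage differences had adjusted p-values of 0.922 for Rps3a1 and 0.913 for the sum (edgeR's quasi-likelihood F test over the 3 cage coefficients, Benjamini-Hochberg adjustment). For cage, 0.0279% of genes were called, namely Arrdc2, Cdkn1a, Otud1 and Slc25a25, which lie outside the naming rule and were named after their values were seen, and 7.36% had an unadjusted p under 0.05. Without heterozygous replicate 3, 869 genes were called for cage. Whether Rps3a1 or the sum differs between cages by less than this design can detect is not answered by these p-values.

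The other genes of the ribosome showed no difference between the labels that passed the test. Of the 31 other small-subunit genes, 16 had a log2 fold change above 0 and 15 below (48.4% of all genes tested were above 0), with a median of 4.8e-05 against -0.0060 over all genes. None was called at an adjusted p under 0.05 (0% of all genes), and 1 of 31 had an unadjusted p under 0.05 (1.05% of all genes, 0.544% higher and 0.509% lower). That was Rps10, a small-subunit gene, at 0.63 (SE 0.28, adjusted p = 1.0, edgeR with Benjamini-Hochberg adjustment), which also had the lowest level of the list with 0.871 CPM per kilobase. Rps4x, the X-linked gene of eS4, had a log2 fold change of -0.13. Rps15, the most abundant of the list at 517 CPM per kilobase, had a log2 fold change of -0.05 (SE 0.26).

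Of the 47 large-subunit genes, 17 were above 0 and 30 below, with a median of -0.04, and 0 had an adjusted or unadjusted p under 0.05 in edgeR's test. Over the genes of both subunits together the median was -0.03, and it moved to -0.15 with cage as the only covariate, to -0.22 with the replicate block and to 0.12 without wildtype replicate 4, so it has no stable sign. Rpl34 (-0.34, SE 0.38), Rpl10 (-0.14, SE 0.16) and Rpl41 (-0.18, SE 0.21) had the smallest p-values. The most abundant, the stalk protein gene Rplp1, was at 1160 CPM per kilobase with a log2 fold change of 0.02.

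Of 9 paralogs of ribosomal protein genes, 7 passed the filter on low counts and 1 had no count in any library. Of the 7, 2 were above 0 and 5 below, with a median of -0.07. Rps4l, a paralog of Rps4x, had a log2 fold change of -0.67 (SE 0.22, p = 0.0089, adjusted p = 1.0, edgeR with Benjamini-Hochberg adjustment), and it was the only 1 of the 7 with an unadjusted p under 0.05 (1.05% of all genes). Rpl3l, the striated-muscle paralog of Rpl3, was at 445 CPM per kilobase, with a log2 fold change of -0.09 (SE 0.17). Rps27rt, a paralog of Rps27, had -0.24 (SE 0.43). For body weight, 27 of the 31 small-subunit and 44 of the 47 large-subunit genes had a slope above 0 (47.3% of all genes tested), and 1 and 2 of them had an unadjusted p under 0.05, under the 17.1% of all genes.

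Within the heterozygous label, the level of the copies was compared with that of the other small-subunit genes. Over the 10 libraries, log2 CPM of the sum had a Pearson r of 0.834 (two-sided permutation p = 0.0048, adjusted p = 0.0193 over 4 relations) and a Spearman rho of 0.685 (permutation p = 0.0326, adjusted p = 0.0695) with the log2 summed CPM of the 31 small-subunit genes. Rps3a1 had r = 0.555 (permutation p = 0.0984) and rho = 0.479 (permutation p = 0.163). Rps3a3 (r = 0.752, rho = 0.685) and Rps3a2 (r = 0.671, rho = 0.636) are given with no test, as for body weight and cage. Both were counted among the 4 relations of the adjustment. Neither tested rank correlation passed after adjustment. The difference between the r of the sum and that of Rps3a1 was not tested.

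Without heterozygous replicates 7 and 9, the 2 libraries farthest from the median of the small-subunit sum, r was 0.746 for the sum, 0.917 for Rps3a3, 0.719 for Rps3a2 and 0.285 for Rps3a1. With the mean of each of the 4 cages removed, r was 0.835 for the sum (exact permutation within cages, p = 0.0521) and 0.638 for Rps3a1 (exact p = 0.125). It was 0.727 for Rps3a3 and 0.657 for Rps3a2, given with no test. Neither the sum nor Rps3a1 passed within cages after adjustment over the 4 relations (exact permutation, lowest adjusted p = 0.0926). All quantities share the scaling of the library. The spread of Rps3a1 between heterozygous libraries, an SD of 0.351 on the log2 scale, was under the median of 0.444 over the 78 other subunit genes, of which 65 had a larger SD.

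**Figure D4:**
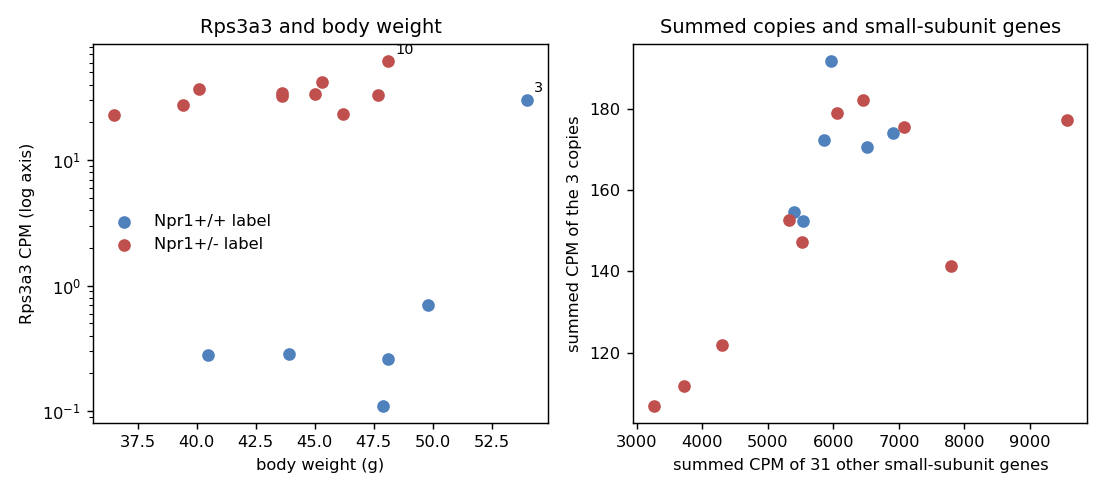
Left, Rps3a3 in TMM-scaled CPM (log axis) against body weight in grams. Right, the summed CPM of the 3 copies against the summed CPM of 31 other small-subunit genes. Each point is a library, heterozygous in red (n = 10) and wildtype in blue (n = 6). On the left, wildtype replicate 3, the heaviest mouse at 54 g, sits at 30.4 CPM among the heterozygous values, and on the right the sum rises with the small-subunit genes over the heterozygous libraries (Pearson r 0.834).

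The genes whose pattern was most like that of each copy were taken from all genes tested by the Pearson r of log2 CPM over the 16 libraries, which is a description, since all follow the label and wildtype replicate 3 to some extent. Between the copies themselves r was 0.91 for Rps3a2 and Rps3a3, -0.72 for Rps3a1 and Rps3a3 and -0.60 for Rps3a1 and Rps3a2, and without wildtype replicate 3 these were 0.91, -0.73 and -0.60. The genes most alike are named over all 16 libraries only. Nearest to Rps3a3 was Hist1h2al, a replication-dependent histone gene (r = 0.95), followed by Rps3a2, A930005H10Rik (0.90), 2310033P09Rik (0.80) and Alpk1 (0.77), which encodes an alpha-kinase. The most opposite to Rps3a3 were Hist2h2be (-0.80), Hspb6 (-0.79), Fhl1 (-0.75), Adamts8 (-0.73) and Fam241a (-0.73). Rps3a2 had Rps3a3, Hist1h2al (0.90), A930005H10Rik (0.88), 2310033P09Rik (0.77) and Gm48768 (0.74) at the top, and Adamts8 (-0.76), Cers2 (-0.75), H2afy (-0.75), Gm10171 (-0.72) and Ppil2 (-0.72) at the bottom.

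Rps3a1 was most like Mrpl9 (0.88), a mitochondrial ribosomal protein gene, Coq7 (0.86), an enzyme gene of coenzyme Q synthesis, Hist2h2be (0.86), Cutc (0.85) and Nkiras1 (0.84). The most opposite were D10Wsu102e (-0.82), Sh3d19 (-0.78), Iqgap2 (-0.78), Gm10524 (-0.78) and Glyr1 (-0.77). Sh3d19, at chr3:85971109-86130526, lies 7413 bases from Rps3a1. Of the 10 genes named for each copy, 30% (Rps3a1), 20% (Rps3a2) and 40% (Rps3a3) lie on chromosome 3, against 4.92% of genes tested. The reason was not tested.

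A930005H10Rik, on chromosome 3 at 25.4 Mb from Npr1, had the same library standing apart as Rps3a3. It was at 16.2 to 37.7 CPM in the heterozygous libraries, and at 8.98, 8.25, 20.3, 8.70, 8.24 and 8.59 CPM in wildtype replicates 1 to 6. Without replicate 3 its wildtype mean was 8.55 ± 0.317 CPM (SD, n = 5). In wildtype replicate 3 the summed small-subunit genes were at 5400 CPM, the lowest of the wildtype libraries, and the muscle markers at 110390 CPM, also the lowest. In heterozygous replicate 10 they were at 7795 and 174160 CPM, inside the range of the other heterozygous libraries, whereas its adipocyte markers, at 1101 CPM, were the highest of all 16 libraries (heterozygous median 483 CPM). The part of these levels in the split among the copies was not tested, and whether wildtype replicate 3 carries the genotype of its label cannot be told from its Npr1 mRNA, which at 12.6 CPM lay within the range of both labels.

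No marker of another cell type had an adjusted p under 0.05 between the labels. The 5 erythrocyte markers were all above 0 in the label contrast (48.4% of all genes), and 2 of the 5 had an unadjusted p under 0.05 (1.05% of all genes; Hbb-bt 0.79 and Alas2 0.54 on the log2 scale, adjusted p = 1.0 for each in edgeR's test), and their sum was 88.0 to 510 CPM in the heterozygous and 192 to 320 CPM in the wildtype libraries. Leukocyte markers (6 of 6 detected, 4.69 to 14.2 against 6.88 to 12.1 CPM) had 5 of 6 members above 0 and a median log2 fold change of 0.08. The only member below 0 was Cd79a, a B cell gene, which had a log2 fold change of -1.18 (unadjusted p = 0.0033, adjusted p = 1.0, edgeR). Adipocyte markers summed to 278 to 1101 against 455 to 801 CPM, and tendon and fibroblast markers to 248 to 516 against 270 to 339 CPM. Their part in the values of the copies was not tested. In whole muscle, fewer cells of a type and less RNA per cell cannot be told apart.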

How the data were processed

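Poly-A RNA of skeletal muscle was sequenced in pairs of 52-base reads. The authors mapped reads to GRCm38 with STAR 2.7.2b and deposited raw counts per GENCODE M24 gene, made with featureCounts (1.6.4 in the submitters' processing notes; another version in the study's methods) where both ends aligned. The deposited table also holds gene length in bases, used for levels per kilobase. The handling of reads with several matches and of strand is not given in the sources used here, and the library kit differs between the labels (Tecan Universal Plus) and the methods (TruSeq Stranded), so counts of the near-identical copies, and of Rps3a3 inside Pde4d, are uncertain in their assignment.

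Counts were filtered with filterByExpr by label, scaled with TMM and fitted with edgeR 4.0.16 (R 4.3.3; glmQLFit, robust = TRUE, legacy = TRUE, glmQLFTest) on genotype label, cage and body weight, with Benjamini-Hochberg adjustment over 14331 genes and a threshold of 0.05. Likeness, the SD over heterozygous libraries and the correlations across labels used log2 CPM with a prior count of 2. The figures, the relations with the small-subunit genes and the flagged levels used CPM or its log2 with no prior count. Symbols of 55144 identifiers and the sequences came from the GENCODE M21 annotation of GRCm38, and the coordinates of the 3 genes are the same in the deposited table. Protein sequences were not used here. Simulated counts for 14331 genes held planted changes of 2 log2 units by label or cage, or 0.3 per gram of body weight. They were placed in well-counted genes. The steps called 199 of 200 genes changed by label, with 8 unchanged genes also called. They called 198 of 200 with a body weight slope (12 unchanged) and 194 of 200 changed by cage (6), and 0 where nothing changed. Changes as small as those of Rps3a1 and of the sum were not simulated, so these counts do not give the power for them.

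The members and lists were chosen with earlier results of these data known. Genes named are the copies, matching loci with at least 10 counts, Npr1, A930005H10Rik, and the 5 most and 5 least alike genes per copy. From each ribosomal list come the 3 smallest p-values and the highest and lowest level per length. Not every gene so chosen is reported here. Matching loci on chromosome 18 were left out throughout. Pde4d, Rps3a3's host, and the relations with the small-subunit genes were added after values were seen. No 2 libraries of a label agreed within sampling noise (45 and 15 pairs, lowest chi-square per degree of freedom 12.3 and 21.6). Each library is 1 mouse. The alternatives were other scalings, DESeq2 1.42.0, limma-voom (limma 3.58.1), other filters, fewer covariates, a replicate block and leaving out each mouse; the sum over all matching loci, the relations within cages and the correlations without wildtype replicate 3 were added after the data were seen.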

Additional observations from a re-analysis of the deposited data

Results flagged for a closer look

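In 7 of 22 sets of values the highest or lowest library stood apart from the others by Dixon's 95% critical value. Each set was a copy's log2 CPM or share, or the level of a named gene, within 1 label. The critical value marks libraries here and is not used as a test, since the copies were chosen on the label contrast. Wildtype replicate 3 stood apart from the other 5 wildtype libraries in its Rps3a3 level (log2 CPM 4.93), its A930005H10Rik level (log2 CPM 4.34) and its split among the copies, with a share of 79.2% for Rps3a1, 1.12% for Rps3a2 and 19.7% for Rps3a3. Heterozygous replicate 10 stood apart from the other 9 heterozygous libraries in its split, with 54.3% for Rps3a1 and 43.5% for Rps3a3. The shares of 1 library add up to 100, so flags on several copies of a library are not independent of each other.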

How the results depend on the processing

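The log2 fold changes of the 3 copies and of the sum kept their sign under every alternative that gave a value; Rps3a2 was 1.46 with the label alone and 1.55 with cage as the only covariate, and Rps3a3 was 2.68 with the label alone. Leaving out each mouse gave -0.67 to -0.49 for Rps3a1, 2.02 to 2.74 for Rps3a2, 5.39 to 7.28 for Rps3a3 and -0.24 to -0.11 for the sum. Body weight slopes of Rps3a1 turned to 0.0035 with library size as the only scaling, and ranged over mice left out from -0.031 to 0.034 (sum -0.012 to 0.048, Rps3a2 0.061 to 0.168, Rps3a3 0.059 to 0.426), and the adjusted cage p-values from 0.322 to 0.984 (Rps3a1) and 0.199 to 0.997 (sum). Rps3a2 and Rps3a3 had no value with at least 10 counts in every library. Genes called for the label numbered 6 with DESeq2 and 8 without a filter, for cage 78 with DESeq2, 23 without a filter, 1 with limma-voom or at least 10 counts (Otud1) and 0 with library size only. Leaving out a mouse gave 0 to 3 for the label (3 without wildtype replicate 3), 0 to 869 for cage and 0 to 3158 for body weight (both highest without heterozygous replicate 3). Mean shares ranged from 74.8 to 77.7% (Rps3a1), 1.05 to 1.23% (Rps3a2) and 21.2 to 24% (Rps3a3) under the heterozygous label, and from 95.5 to 99.6%, 0.222 to 0.421% and 0.198 to 4.12% under the wildtype label, where leaving out replicate 3 gave 99.6%, 0.222% and 0.198%. The causes were not tested.

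With the replicate block in place of cage, 2 genes were called for the label (Alpk1 and Hist1h2al) and 1 for body weight (Ubd), and the body weight slope of the sum was -0.017; it changed no call of the copies. Mice that share a number across the labels are not the same animal and have only that number in common (mean r of deviations 0.0779 over 6 pairs, with 0 of 6 wildtype libraries correlating best with their own number).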
